A study of Capra hircus with 9 samples.

Results

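PECAM1, VWF, CDH5, KDR, TEK, LYVE1, PROX1, FLT4 and MADCAM1, 9 of the 21665 genes of the expression table, mark the cells that line blood and lymph vessels, and they were chosen by name. All 9 were found, as 35 transcript rows that were summed per gene. Levels are given as CPM, the counts of a gene relative to the counts of its library after scaling by the trimmed mean of M-values (TMM). RNA-seq was done on submandibular glands, paired salivary glands under the jaw, of healthy female Lubo goats (Capra hircus), a domestic breed. Goats were 1, 12 or 24 months old, with 3 goats of each age and 1 library per goat. All were kept under natural light with free feeding, then fasted and anaesthetised with xylazine before slaughter, and no treatment separated the groups. The glands were taken whole, so fewer vessel cells and less RNA per vessel cell cannot be told apart in any level given here.

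Endothelial cells form the inner wall of every vessel and share junction and adhesion proteins such as PECAM1 and CDH5. Their growth and survival are governed by vascular endothelial growth factors (VEGF) and angiopoietins, which act on receptors including KDR, FLT4 and TEK. Lymphatic endothelium is set apart by the transcription factor PROX1, and venules that admit lymphocytes carry adhesion molecules such as MADCAM1, which binds the α4β7 integrin of lymphocytes.

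The 3 libraries of 1-month-old goats differed from each other in what else they held, which has to be known before the levels are read. In replicate 2 the summed level of 9 gland acinus and duct genes was 456 CPM, against 37770 and 25700 CPM in replicates 1 and 3 and 118700 to 212300 CPM in the 6 libraries of 12- and 24-month-old goats (hereafter the older libraries). The markers MUC19 (a salivary mucin), AQP5 (the water channel of acini) and ZG16B were at 51.1, 0.495 and 9.13 CPM there. They were at least at 17080, 129 and 6657 CPM in the other libraries, so that a library labelled submandibular gland almost lacked them. PIGR and EHF on the same list were also lowest there, at 4.74 and 1.42 CPM, and MUC5B was at 0.21 to 0.67 CPM in all 3. KRT8 was highest there, at 236, 308.5 and 159 CPM in replicates 1 to 3. KRT18 (91.2, 69.1 and 52.2 CPM) and LTF (6.59, 11.5 and 394 CPM) were not lowest there either. Replicate 2 also had the most RNA of 10 thymocyte genes, 10370 CPM, while replicates 1 and 3 had 2990 and 1426 CPM and the older libraries 25.8 to 44.8 CPM. Replicate 3 of the 1-month-old goats held the most RNA of 7 macrophage genes, 1747 CPM, against 472 and 534 CPM in replicates 1 and 2 and 159 to 285 CPM in the older libraries. The part of these other cells in the results was not tested, and results are given with and without replicates 2 and 3. Library totals were 2.01e+07 to 2.63e+07 expected counts, at which 3 counts, the floor used here, correspond to 0.0839 to 0.174 CPM.

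Most of the 9 genes moved together across the 1-month-old goats and varied less in the older ones. Among the 3 libraries of 1-month-old goats, 8 of 9 genes were lowest in replicate 2 (all but MADCAM1) and 8 of 9 were highest in replicate 3 (all but VWF). In replicate 2, CDH5, KDR, TEK, LYVE1, PROX1 and FLT4 lay under every older library, whereas in replicate 3 all genes but VWF lay above every older library. The mean of 1-month-old goats is thus a mean of a low and a high library for 6 of the 9 genes.

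**Figure D1:**
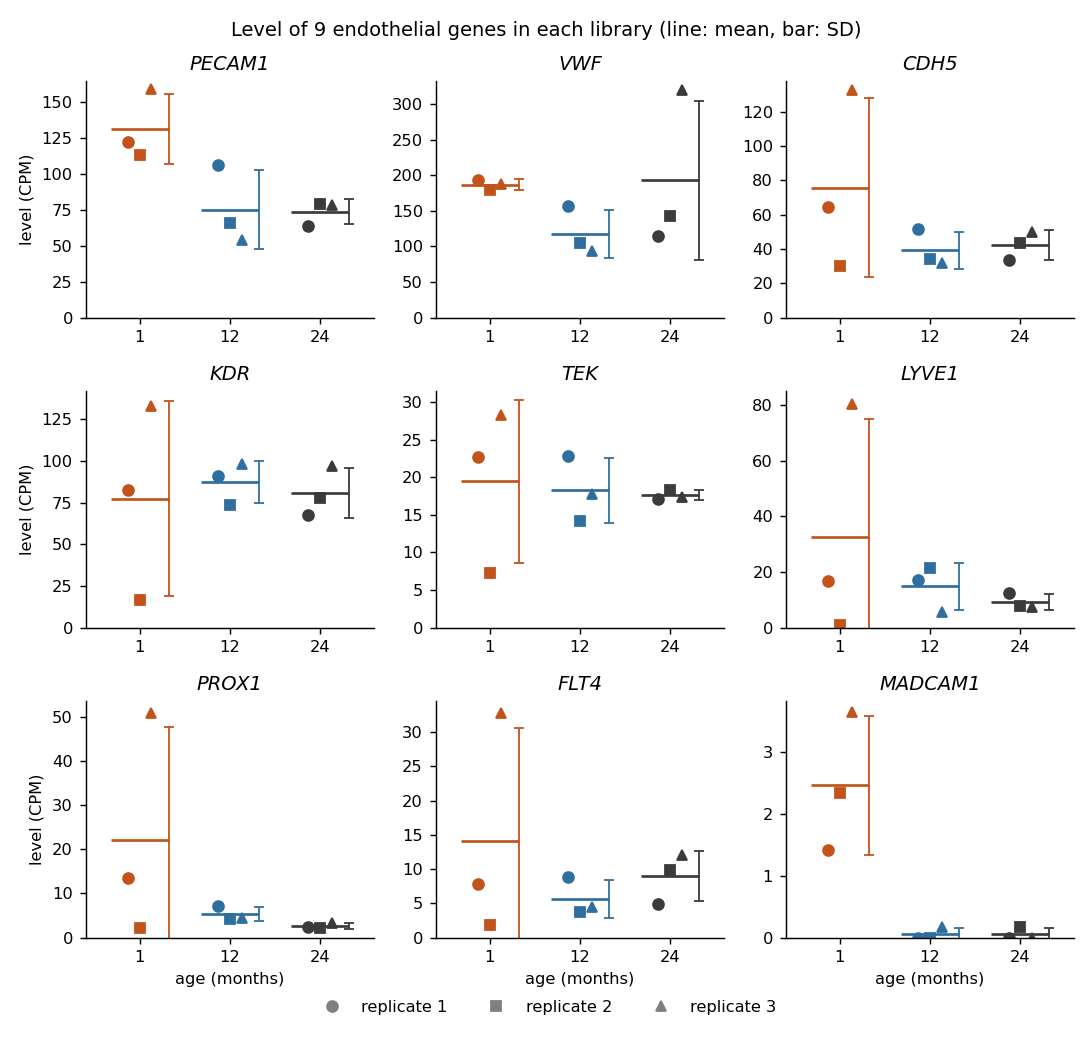
Level in CPM (vertical axis, from 0) of each gene in the 9 libraries by age in months. Points are libraries, shaped by replicate number, lines are means and bars are SD, which are drawn down to 0 at most. In 1-month-old goats the square (replicate 2) is lowest and the triangle (replicate 3) highest for CDH5, KDR, TEK, LYVE1, PROX1 and FLT4, and MADCAM1 is near 0 in all 6 older libraries.

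**Figure D2:**
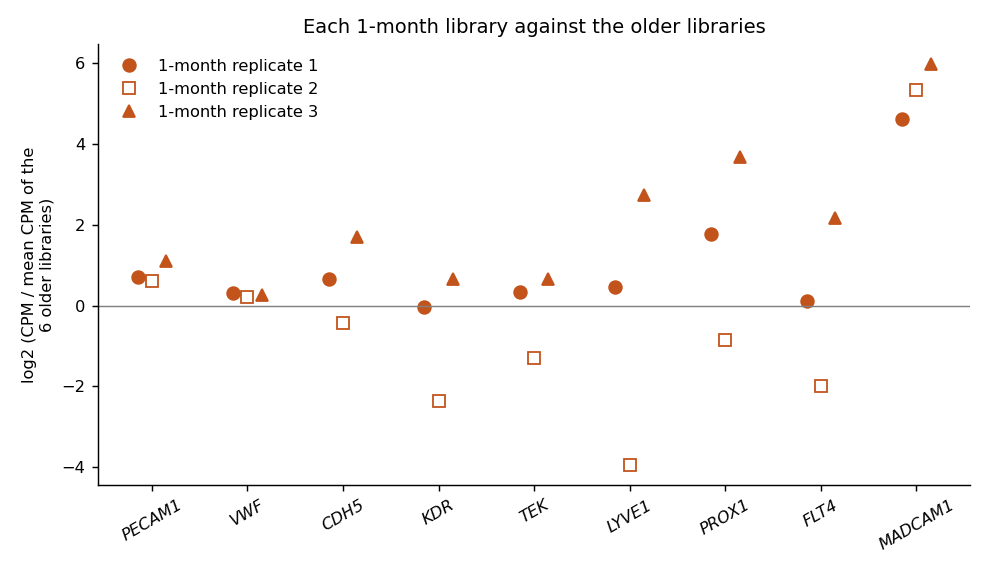
Log2 ratio of each library of 1-month-old goats to the mean of the 6 older libraries, for each gene. Open squares (replicate 2) fall below 0 for 6 genes, to -3.95 for LYVE1, and filled triangles (replicate 3) lie above 0 for all 9, with 3.69 for PROX1 and 5.99 for MADCAM1.

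PECAM1, an adhesion protein of the junctions between endothelial cells that is also carried by platelets and some leukocytes, was measured at 122, 113 and 159 CPM in replicates 1, 2 and 3 of the 1-month-old goats. It was at 106, 65.5 and 53.7 CPM at 12 months and at 63.7, 79.4 and 78.1 CPM at 24 months. Every older library was below every 1-month library, with the first 12-month library close to them. The means were 132 ± 24.5 (SD, n = 3), 75.2 ± 27.7 and 73.7 ± 8.67 CPM at 1, 12 and 24 months. With all 9 libraries in 1 fit, in which the mean of 12 and 24 months was set against 1 month, PECAM1 fell by 0.82 on the log2 scale (SE 0.264, adjusted p = 0.0372, edgeR's quasi-likelihood test). In the pairs of ages it did not pass the test, with adjusted p = 0.145 for 12 months and 0.181 for 24 months against 1 month. Without 1-month replicate 2 the fall was 0.915 on the log2 scale (adjusted p = 0.0207), and without replicate 3 the log2 change was -0.66 and was not past the test (adjusted p = 0.135). Leaving out 1-month replicate 1, 12-month replicate 2 or 3, or any 24-month library also took the adjusted p over 0.05, to at most 0.0925. The 5 leukocyte genes measured, also highest in 1-month-old goats, summed to 1519, 5334 and 2071 CPM in replicates 1 to 3 at that age against 308 to 393 CPM in the older libraries, and their part in the PECAM1 level was not tested.

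CDH5, or VE-cadherin, the cadherin of endothelial junctions, was at 64.7, 30.4 and 133 CPM at 1 month. At 12 months it was at 51.4, 34.4 and 31.7 CPM, and at 24 months at 33.3, 43.6 and 50.2 CPM. The 1-month libraries lay on both sides of the 6 older ones, so that the groups overlapped. The fitted log2 change of the older ages against 1 month was -0.90 (SE 0.399, adjusted p = 0.108). Without 1-month replicate 2 CDH5 fell by 1.27 on the log2 scale (SE 0.293, adjusted p = 0.00833), and without replicate 3 the change was -0.22 (adjusted p = 0.667).

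VWF, the clotting protein that endothelial cells store and that binds platelets, was the steadiest gene at 1 month, with 193, 179 and 188 CPM (187 ± 7.26, SD, n = 3). It was at 156, 104 and 92.8 CPM at 12 months, all below the 1-month libraries. At 24 months it was at 114, 143 and 320 CPM, where replicate 3 stood above all other libraries. Its log2 change was -0.62 for 12 months against 1 month (SE 0.288, adjusted p = 0.163) and 0.15 for 24 months against 1 month (SE 0.477, adjusted p = 0.855), neither past the test. Without 24-month replicate 3 the latter was -0.43. The 7 platelet and megakaryocyte genes, whose cells also store VWF, summed to 5.59 to 21.7 CPM at 1 month and 1.69 to 3.83 CPM in the older libraries, and the platelet marker GP9 was at or under the floor in all 9. Of the others, ITGA2B was at 5.74, 4.92 and 14.5 CPM at 1 month and at 1.23 to 2.55 CPM later (adjusted p = 0.00416), and PPBP was at 4.05 CPM in 1-month replicate 3, both above the floor there. Their part in the VWF level was not tested.

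KDR, the main VEGF receptor of blood endothelium, varied most widely among the blood vessel genes at 1 month, with 82.6, 16.5 and 133 CPM. It was at 90.9, 73.3 and 98.1 CPM at 12 months and at 67.8, 78.0 and 97.2 CPM at 24 months. The highest library was 8.08 times the lowest at 1 month and 1.45 times the lowest among the older ones. KDR was not past the test in any comparison, and its log2 change for the older ages was 0.12 (SE 0.499, adjusted p = 0.870). Without 1-month replicate 2 the change was -0.36 (SE 0.239, adjusted p = 0.268), and without replicate 3 it was 0.76 (adjusted p = 0.298).

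TEK, the angiopoietin receptor, followed KDR with 22.7, 7.29 and 28.3 CPM at 1 month, 22.8, 14.1 and 17.8 CPM at 12 months and 17.1, 18.3 and 17.4 CPM at 24 months. Its 24-month libraries were close together, at 17.6 ± 0.626 CPM (SD, n = 3). The older ages differed from 1 month by -0.12 on the log2 scale (SE 0.385, adjusted p = 0.835), with -0.51 without 1-month replicate 2 (adjusted p = 0.108). The sign of that difference turned to 0.26 without 1-month replicate 3.

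FLT4, the receptor for VEGFC and VEGFD that is kept mainly on lymphatic endothelium of the adult, was at 7.89, 1.84 and 32.8 CPM at 1 month. It was at 8.81, 3.68 and 4.41 CPM at 12 months and at 4.94, 9.81 and 12.1 CPM at 24 months. The lowest and the highest of all 9 libraries were both from 1-month-old goats. The log2 change for the older ages was -0.998 (SE 0.70, adjusted p = 0.292). It became -1.52 without 1-month replicate 2, then past the test (SE 0.513, adjusted p = 0.0423), and 0.55 without replicate 3 (adjusted p = 0.538).

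PROX1, the transcription factor that gives lymphatic endothelium its identity, was at 13.6, 2.19 and 50.9 CPM at 1 month. At 12 months it was at 7.21, 4.29 and 4.41 CPM, and at 24 months at 2.32, 2.198 and 3.34 CPM. The 24-month libraries were all below the 12-month libraries, and 1-month replicate 2 was as low as the lowest of them. The older ages were lower by a fitted log2 change of -2.58 (SE 0.686, adjusted p = 0.0177), the second largest of the 9 genes. It was -3.11 without 1-month replicate 2 (SE 0.413, adjusted p = 0.000527), and without replicate 3 it was -1.08 and not past the test (adjusted p = 0.189). Against 1 month alone, the change was -1.99 at 12 months (adjusted p = 0.178) and -2.96 at 24 months (adjusted p = 0.0682). Between 12 and 24 months it was -0.97 (SE 0.389, unadjusted p = 0.0326, adjusted p = 0.430, edgeR).

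LYVE1, a hyaluronan receptor of lymphatic endothelium that some macrophages also carry, had the widest range of all, with 16.6, 0.778 and 80.7 CPM at 1 month. It was at 17.3, 21.6 and 5.50 CPM at 12 months and at 12.5, 7.61 and 7.39 CPM at 24 months. The highest library at 1 month was 104 times the lowest, and the latter rested on 22 counts. Its log2 change for the older ages was -1.49 (SE 0.91, adjusted p = 0.227). Without 1-month replicate 2 it was -2.06 and past the test (SE 0.551, adjusted p = 0.0164), and without replicate 3 it was 0.42 (adjusted p = 0.748). The 7 macrophage genes were, like LYVE1, highest in replicate 3 at 1 month. MARCO was at 13.6, 0.566 and 85.0 CPM at 1 month and listed at 0 in all 6 older libraries. The macrophage mannose receptor MRC1 was at 81.9, 38.0 and 264 CPM at 1 month and at 7.33 to 20.9 CPM in the older libraries. MARCO, MRC1 and CD14 were, like LYVE1, lowest in replicate 2 at 1 month. CD68, CSF1R, C1QA and C1QB were not, with C1QB at 115, 148 and 505 CPM in replicates 1 to 3. The part of macrophages in the LYVE1 level was not tested.

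MADCAM1, the venule addressin, was found in the 1-month-old goats and almost nowhere else. It was at 1.41, 2.34 and 3.63 CPM at 1 month, from 38, 66 and 130 counts, and replicate 2 was not the lowest. At 12 months it was at 0, 0 and 0.175 CPM and at 24 months at 0, 0.169 and 0 CPM, which are 4 and 3 counts in all. Per depth, its summed counts were 42.0 times higher at 1 month than at 12 months (95% interval 16.2 to 156) and 46.7 times higher than at 24 months (15.8 to 228). These are exact intervals for 2 Poisson counts and cover counting error only. MADCAM1 fell with adjusted p = 0.0309 at 12 months, 0.0237 at 24 months and 0.00417 for both ages together, and the fitted log2 change of the last, -5.29 (SE 1.03), depends on how the model treats values of 0. The last call held without any one library, with adjusted p from 0.00511 to 0.0160. The call at 12 months was lost when any library but 1-month replicate 2 was left out (adjusted p up to 0.112), and that at 24 months without 1-month replicate 3, 24-month replicate 1 or 24-month replicate 3 (up to 0.0979).

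Counted over all 9 genes, MADCAM1 was the 1 gene past the test both at 12 and at 24 months against 1 month, where 17.5% and 17.1% of all genes tested were past it. With both later ages against 1 month, PECAM1, PROX1 and MADCAM1 passed, 3 of 9 where 34.7% of all genes did. The median log2 change of the 9 genes was -0.90 in that fit, beside -0.11 for all genes tested. Without 1-month replicate 3, the changes of KDR, TEK, LYVE1 and FLT4 were above 0 (0.76, 0.26, 0.42 and 0.55). Those of the other genes stayed below 0, with CDH5 at -0.22, and the median of all genes was -0.076. With all libraries, PROX1 and MADCAM1 were also beyond an absolute log2 fold change of 2, a further threshold of the study. These are 2 of 9, where 16.2% of all genes were. Between 12 and 24 months none of the 8 genes tested passed in edgeR's quasi-likelihood test, nor did any of all 14290 genes (0.0%). There, 1 of the 8 (PROX1) and 1556 of all genes had an unadjusted p under 0.05, while DESeq2 called 25 and edgeR's exact test 24 of all genes. Without 24-month replicate 1, 4619 genes (31.6%) passed and still none of the 8.

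The counts moved most with 1-month replicates 2 and 3 in the fit of the older ages. Without replicate 2, 6 of 9 genes fell in the older ages (PECAM1, CDH5, LYVE1, PROX1, FLT4 and MADCAM1), where 38.3% of all genes were past the test. The 5 adipocyte genes measured were also all lower without replicate 2 and none without replicate 3, and they had the same order at 1 month, with summed levels of 169, 8.31 and 340 CPM, and their part in the result was not tested. Without replicate 3, only MADCAM1 did (27.5% of all genes). In the pairs of ages, 3 genes passed at 12 months without replicate 2 (CDH5, PROX1 and MADCAM1, 42.5% of all genes) and 3 at 24 months (LYVE1, PROX1 and MADCAM1, 28.3%). Without replicate 3 no gene of the 9 passed at 12 months, where 11.1% of all genes did, or at 24 months, where 10.1% did. Those 2 last fits gave MADCAM1 adjusted p of 0.0695 and 0.0590. Older libraries mattered as well: without 12-month replicate 1, 2 or 3 none of the 9 genes passed at 12 months, where 0.0%, 0.387% and 0.709% of all genes did, and without 24-month replicate 1 or 3 none passed at 24 months, where 9.38% and 1.86% did.

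**Figure D3:**
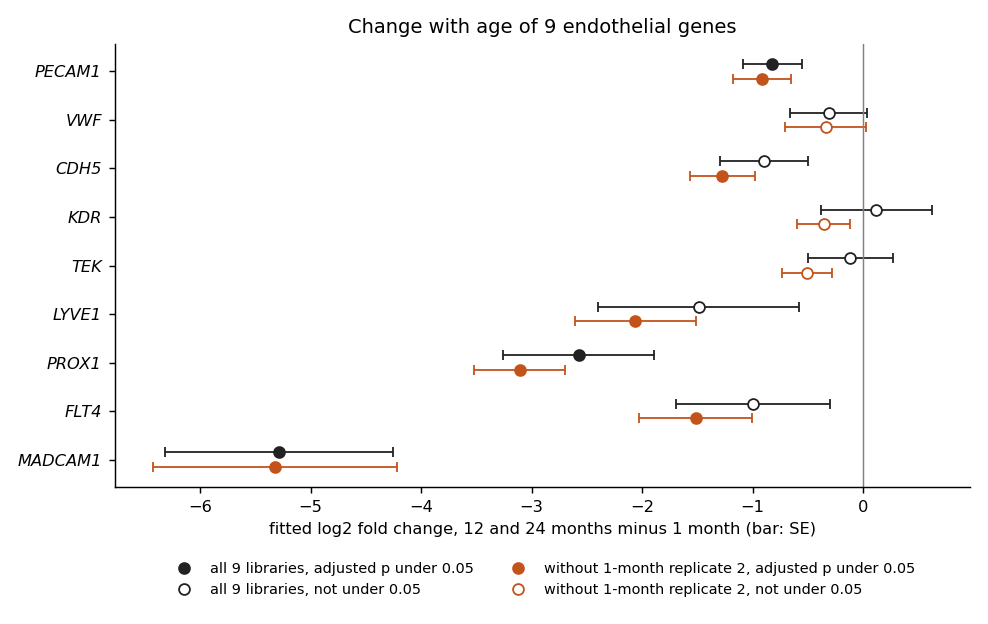
Fitted log2 fold change of 12 and 24 months together against 1 month for each gene, with its standard error as bar, from all 9 libraries (black) and without 1-month replicate 2 (orange). Filled points have an adjusted p under 0.05, which holds for 3 genes with all libraries and for 6 without that replicate.

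Levels of single genes were also set side by side without a model. The groups did not overlap for PECAM1, VWF and MADCAM1 at 12 months against 1 month, where 53.4% of all genes tested did not overlap either. At 24 months against 1 month this held for PECAM1 and MADCAM1 (43.7% of all genes), as it did for all older libraries against 1 month (37.5%). Between 12 and 24 months it held for PROX1 (15.5%). For these genes the two-sided exact permutation test on the CPM of 3 against 3 libraries gave p = 0.1, the smallest it allows, in each such pair of ages. Adjusted over the 27 comparisons made, that p was 0.45, and the same test gave p of at least 0.2 in the other comparisons.

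Next, 7 genes were expressed relative to PECAM1 and CDH5 in the same library, as log2 differences, which do not depend on the scaling of the libraries. The reference genes themselves differed in ratio, with PECAM1 at 3.73 times CDH5 in 1-month replicate 2 and at 1.20 to 2.07 times in the other libraries, and both had fitted changes below 0 with age where that of KDR was near 0. KDR then stood at -0.10, -1.83 and -0.13 at 1 month. It stood at 0.30, 0.63 and 1.25 at 12 months and at 0.56, 0.41 and 0.63 at 24 months. All 6 older libraries were thus above all 3 younger ones, by 1.41 and 1.22 in the mean, to which the low value of 1-month replicate 2 contributed most. TEK went the same way, from -1.97, -3.00 and -2.36 at 1 month to between -1.85 and -1.21 in the older libraries, a mean difference of 0.89 and 0.79. MADCAM1 was lower by -4.79 and -4.73, where libraries with 0 counts were given 0.5 counts. Between 12 and 24 months PROX1 was lower by -1.07 and VWF higher by 0.52 with no overlap, and the VWF groups did overlap against TIE1, ERG and ESAM as reference. The exact permutation test gave p = 0.1 for each of these, the smallest for 3 against 3. Adjusted over 21 comparisons that p was 0.263, so none passed. The share of all genes without overlap on this scale is not given here. LYVE1, PROX1 and FLT4 overlapped between 1 month and each later age, since 1-month replicate 2 was lowest and replicate 3 highest on this scale also.

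**Figure D4:**
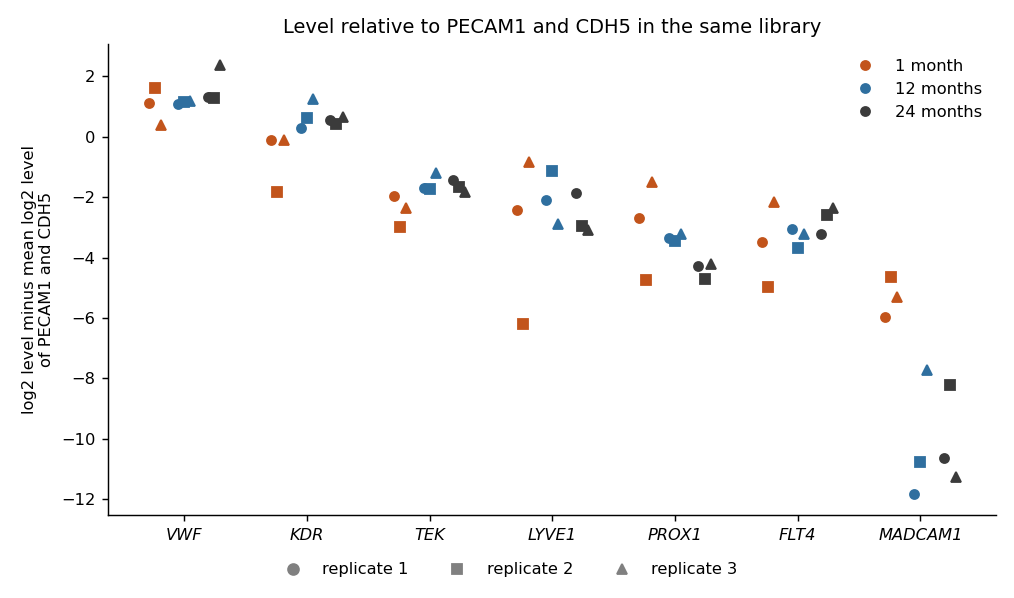
Log2 level of 7 genes minus the mean log2 level of PECAM1 and CDH5 in the same library, by age (colour) and replicate (shape). For KDR and TEK the 6 older libraries lie above the 3 libraries of 1-month-old goats; MADCAM1 lies below them, with 0.5 counts given to libraries at 0.

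The division of counts among transcripts was looked at next. Shares were compared between ages for LYVE1, FLT4, PROX1 and CDH5 only, which were chosen after the data were seen. Transcripts of LYVE1 and PROX1 had shares that did not overlap between 1 month and the later ages. The share of all transcripts for which this held is not given here, and the p-values of this step were not adjusted. The 9 genes had 35 transcripts, 11 of them new, that is, assembled from these reads, and 17 held at least 10% of their gene's counts at some age. KDR and VWF had 1 transcript each. LYVE1 had a known transcript, XM_005689689.3, and a new one, TCONS_00046514. The known transcript took 84.0%, 100% and 98.7% of the LYVE1 counts at 1 month. It took 41.2%, 17.3% and 33.3% at 12 months and 30.8%, 42.3% and 56.4% at 24 months. The new transcript held the remainder, from 43.7% to 82.7% in the older libraries, and the shares of the 1-month libraries did not overlap with those of either later age (exact permutation p = 0.1, the smallest for 3 against 3).

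The level of the known LYVE1 transcript was 13.9, 0.778 and 79.6 CPM at 1 month and 1.83 to 7.14 CPM in the older libraries, whereas the new one was at 2.66, 0 and 1.02 CPM at 1 month and at 3.23 to 17.9 CPM later. Neither was past the test on its own for the older ages (adjusted p = 0.0895 and 0.238 over all transcripts tested). PROX1 differed in its make-up as well. Its transcript XM_018060737.1 took 64.5%, 54.6% and 48.4% of the gene at 1 month and 0% to 30.1% in the older libraries. These shares come from dividing reads among overlapping transcripts, and for FLT4 single libraries put from 0% to 100% of the gene on 1 transcript with no order by age.

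**Figure D5:**
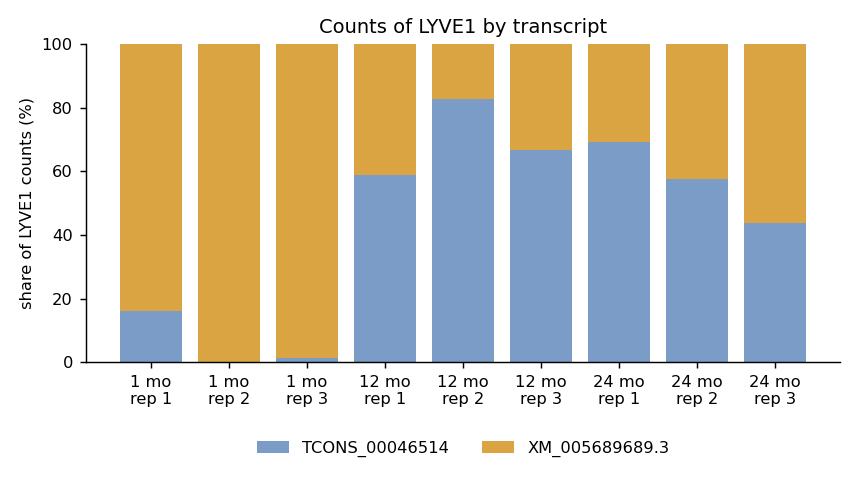
Share of LYVE1 counts (percent, stacked to 100) assigned to the known transcript XM_005689689.3 (yellow) and the new transcript TCONS_00046514 (blue) in each library. The blue share is 0 to 16.0% in the libraries of 1-month-old goats and 43.7% to 82.7% in the older ones; 1-month replicate 2 has 22 counts.

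Other genes of the same pathways were then counted from lists, for the older ages against 1 month, where 21.5% of all genes were past the test and lower and 13.2% past it and higher. Of 19 other genes of endothelium in general, 4 were lower, none was higher and 15 were not past the test. Those were the receptor tyrosine kinase TIE1 (log2 change -1.001, SE 0.295), the transcription factor ERG (-1.30, SE 0.302), the sphingosine phosphate receptor S1PR1 (-1.29, SE 0.364) and the adhesion molecule ICAM2 (-2.42, SE 0.308). ICAM2, which leukocytes also carry, was at 15.5, 20.7 and 34.7 CPM at 1 month and at 3.48 to 5.77 CPM later. Among the rest, PLVAP, a protein of the openings in fenestrated capillaries, was at 59.1, 62.4 and 103 CPM at 1 month, at 121, 71.5 and 80.8 CPM at 12 months and at 101, 196 and 182 CPM at 24 months (adjusted p = 0.127). It was chosen after its values were seen. Without 1-month replicate 3, only ICAM2 of the 19 was past the test.

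Of 14 ligands and receptors of the VEGF and angiopoietin families, KDR, FLT4 and TEK included, 3 were lower, 2 were higher and 9 were not past the test. VEGFA, the main ligand of KDR, was higher, at 41.4, 14.4 and 41.0 CPM at 1 month and at 84.1 to 120 CPM in the older libraries (log2 change 1.59, SE 0.354, adjusted p = 0.00801). FLT1, which binds VEGFA and holds it from KDR, was at 21.3, 8.38 and 22.4 CPM at 1 month and at 33.9 to 46.6 CPM later (1.24, SE 0.336, adjusted p = 0.0188). Both rose also without 1-month replicate 2, by 1.24 and 0.91 on the log2 scale, and without replicate 3, by 1.80 and 1.47. Gland epithelium RNA was higher in the same libraries, as given above, and its part in the VEGFA level was not tested. ANGPT2, the angiopoietin made by endothelium in vessel remodelling, was lower, with 5.74, 3.36 and 8.66 CPM at 1 month and 1.28 to 1.75 CPM later (log2 change -1.98, SE 0.382, adjusted p = 0.00401). NRP2, a co-receptor for VEGFC, was at 37.9, 52.7 and 125 CPM at 1 month and at 18.9 to 34.6 CPM later (-1.62, SE 0.357, adjusted p = 0.00756). The ligands of FLT4 were not past the test, VEGFC with a log2 change of -0.18 and VEGFD with 1.31.

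Of 13 genes of lymphatic endothelium, which include LYVE1, PROX1 and FLT4, 3 were lower (PROX1, STAB2 and CLDN11), none was higher and 10 were not past the test. The scavenger receptor STAB2, which sinus endothelium carries, was at 30.6, 0.106 and 163 CPM at 1 month and at 0 to 0.824 CPM in the older libraries. It was thus near 0 in 1-month replicate 2 and overlapped with the older libraries there, and it was named after its values were seen. CLDN11 was at 1.89, 0.319 and 8.78 CPM at 1 month and at 0.0564 to 0.769 CPM later, also named after its values were seen. PDPN, a mucin-like protein of lymphatic endothelium and of stromal and epithelial cells, was at 4.81 to 8.94 CPM at 1 month and at 3.68 to 7.91 CPM later, chosen likewise, and was not past the test (adjusted p = 0.329). Without 1-month replicate 2, 6 of the 13 were lower (LYVE1, PROX1, FLT4, MMRN1, STAB2 and CLDN11), and without replicate 3 only STAB2 was.

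Of 11 tested genes of venule adhesion and lymphocyte homing, 4 were lower, 2 were higher and 5 were not past the test. Lower with MADCAM1 were P-selectin (SELP), ICAM1 and the chemokine CCL25. SELP was at 7.41, 4.24 and 5.34 CPM at 1 month and at 1.32 to 3.30 CPM later (log2 change -1.25, SE 0.396, adjusted p = 0.0351). CCL25, which is also on the list of thymic epithelium, was at 70.1, 328 and 28.1 CPM at 1 month and at 0.80 to 2.49 CPM later. The higher genes were CHST4 and CHST2, sulfotransferases known from the making of L-selectin ligands in high endothelial venules. CHST2 was at 323, 32.3 and 217 CPM at 1 month and at 635 to 910 CPM later, and CHST4 at 0.0708 to 1.26 CPM and then at 3.54 to 31.3 CPM. Several genes of gland epithelium were, like CHST2, lowest in replicate 2 at 1 month. Among them was EHF, at 296, 1.42 and 215 CPM at 1 month and at 626 to 931 CPM later. EHF was chosen after its values were seen and was not past the test (adjusted p = 0.135). KRT8, KRT18 and LTF were not lowest in replicate 2, with KRT8 at 236, 308.5 and 159 CPM. The part of gland epithelium in the CHST2 level was not tested. Without 1-month replicate 3 SELP (adjusted p = 0.0705) and CHST2 (adjusted p = 0.0609) were not past the test, which left 3 lower and 1 higher (CHST4), and without replicate 2 there were 4 lower and 3 higher, CCL28 being added. GLYCAM1, a carrier of those ligands, had few or no counts in any library.

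On the lymphocyte side, 5 of 6 homing receptors fell and 1 rose. The integrin chains that pair to bind MADCAM1 were both lower: ITGA4 was at 118, 84.9 and 200 CPM at 1 month and at 6.54 to 15.9 CPM later (log2 change -3.38, SE 0.317, adjusted p = 9.47e-05). ITGB7 was at 22.6, 87.2 and 27.4 CPM at 1 month and at 1.74 to 4.67 CPM later (-3.86, SE 0.469, adjusted p = 0.000333). CCR9, the receptor for CCL25, was at 241.2, 1381 and 114 CPM at 1 month and at 0.0513 to 0.407 CPM later. CCR10, the receptor for CCL28, was the 1 that rose, with a log2 change of 2.87 (SE 0.693, adjusted p = 0.0114). The same 5 lower and 1 higher were found without 1-month replicate 2 and without replicate 3. Thymocyte RNA was high in these 3 libraries, as given above, and its part was not tested.

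Pericytes surround the endothelium of small vessels. Of 8 pericyte genes 2 were lower, NOTCH3 and CSPG4, none was higher and 6 were not past the test. NOTCH3 was at 169, 858 and 120 CPM at 1 month, highest in replicate 2, and at 23.4 to 50.4 CPM later (log2 change -3.59, SE 0.564, adjusted p = 0.00141). Like most of the endothelial genes, 6 of the 8 were lowest in replicate 2 at 1 month, and NOTCH3 and CSPG4 were highest there. Thymocyte RNA was also highest in that library, as given above, and its part in the NOTCH3 and CSPG4 levels was not tested. PDGFRB, the pericyte receptor for platelet-derived growth factor, chosen after its values were seen, was at 17.1 to 49.1 CPM at 1 month and at 25.0 to 64.0 CPM later (adjusted p = 0.739). Without 1-month replicate 2, MCAM was lower in addition to NOTCH3 and CSPG4, and without replicate 3 the latter pair was. Of 11 arterial and Notch genes NOTCH1 was lower (-1.42, SE 0.42) and JAG1 higher (0.92, SE 0.303), and neither was past the test without 1-month replicate 2, whereas both were without replicate 3. NOTCH1 was at 101, 394 and 122.5 CPM at 1 month, highest in replicate 2, and at 58.8 to 120.6 CPM later. The part of thymocyte RNA in the NOTCH1 level was not tested either.

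Across the 9 libraries, log2(CPM + 1) of KDR and TEK had a Pearson's r of 0.921, the highest among the 9 genes, followed by CDH5 with PROX1 (0.915) and with FLT4 (0.912). After the mean of each age was taken out, CDH5 and FLT4 had an r of 0.991. VWF followed none closely, with an r of at most 0.566 (PECAM1). These are descriptions over 9 points that share age, 1-month replicates 2 and 3 at the ends and the scaling of each library. Among 15332 other genes, those most like CDH5 were EMILIN1 (0.990), PLEKHG5 and C1S. RELN, a gene on the lymphatic list, was most like KDR (0.982), followed by TCF7L2 and KIAA1462, and ITGA7, KIAA1614 and ZCCHC24 were most like TEK (0.961 for the first). BST1, PTX3 and ADAMTS12 were most like PROX1 (0.988), ACVRL1, HSD3B7 and GJD3 most like FLT4 (0.962), and LOC102176126, EBF1 and P2RY12 most like LYVE1 (0.960). For PECAM1 they were IL18BP (0.960), IQCD and NCR1, for VWF PGGHG (0.937), PIDD1 and MN1, and for MADCAM1 HOXA6 (0.998), MGAM and LOC108637289.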

How the data were processed

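Ribosomal RNA was removed from the RNA of 9 glands before strand-marked libraries were sequenced on an Illumina HiSeq instrument. Per the labels and the study's methods, the authors filtered the reads, removed rRNA reads with Bowtie2 2.2.8, aligned the remainder with TopHat2 2.1.1, assembled transcripts with Cufflinks and quantified them with RSEM. The genome build is not given in the sources used here. The authors deposited expected counts for 52739 transcripts. In the table each library's expected counts had been multiplied by 1 constant (0.439 to 1.17). How it was computed is not given in the sources used here. Division by that constant, found from the smallest steps between values, made 78 of the 81 sums of the 9 genes whole (within 0.02), against 14 of 81 before it, and the divided values were used. Transcripts were summed to 21665 genes by RefSeq gene (assembly GCF_001704415.2, names only, 99.92% of known identifiers matched). No sequences are shown.

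Rounded counts were tested with edgeR 4.0.16 (R 4.3.3). After filterByExpr and TMM, glmQLFit and glmQLFTest gave p-values that were adjusted by Benjamini-Hochberg over every gene tested, with a threshold of 0.05. The SE is the log2 change divided by the square root of F. Pairs of ages used their 6 libraries, and the contrast of the mean of 12 and 24 months with 1 month used all 9. For single values two-sided exact permutation tests (scipy 1.17.1) were used, whose smallest p with 3 against 3 is 0.1. The genes, lists and tests were chosen with earlier results of these data known. Named beside the 9 genes are, per list, at most 4 genes past the test with the largest change whose groups do not overlap, the 3 genes most like each gene, and transcripts with 10% or more of a gene. Others are named outside this rule with their values already seen, also where the text does not say so. Among them are SELP and genes not past the test or not tested. Alternatives were DESeq2 1.42.0 (size factors, Wald test), upper quartile, totals without the 100 most abundant transcripts, no filter, edgeR's exact test, all libraries in 1 fit, single transcripts, a replicate block and each library left out in turn. The values as deposited were added after seeing the data. The fit was tested on simulated data for 24 against 12 months only, which does not cover the wider spread at 1 month.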

Additional observations from a re-analysis of the deposited data

How the results depend on the processing

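The number of the 9 genes past the test was 1 at 12 months and 1 at 24 months against 1 month, and 3 for the older ages together. With each library left out in turn it ranged from 0 to 3, 0 to 3 and 1 to 6, where the share of all genes past the test ranged from 0.0% to 42.5%, 1.86% to 28.3% and 25.8% to 38.3%. Tested as single transcripts it was 0 in all 3, where 2.63%, 1.47% and 10.9% of all transcripts passed. At 24 months it was 2 with DESeq2's Wald test, with edgeR's exact test and with all 9 libraries in 1 fit, PROX1 being added. Of all genes, 22.0%, 25.5% and 28.5% passed in these fits. Non-overlapping genes at 12 months were 1 with totals without the 100 most abundant transcripts. Relative to PECAM1 and CDH5, genes without overlap ranged from 3 to 5 at 24 months against 1 month with a library left out. Between 12 and 24 months they ranged from 2 to 4, and were 1 with TIE1, ERG and ESAM as reference and no library left out. The share of all genes without overlap is not given for these settings, and groups with a library left out overlap less readily. For the older ages, PECAM1 was not past the test with totals without the 100 most abundant transcripts (adjusted p = 0.062). Between 0 and 0.175 CPM, differences of MADCAM1 among older libraries were not detectable at this depth.

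Replicate numbers are shared by the ages, but each library came from a different goat, so the replicate block is not a pairing of goats. Over 9 same-numbered pairs the correlation of deviations from the age means was -0.232 to 0.420, over 0.1 in 2. Pairs with different numbers ran from -0.420 to 0.350, and these correlations cannot decide whether libraries of the same number belong together. With the replicate block, 0 genes passed at 12 months, 1 at 24 months, 0 between 12 and 24 months and 1 for the older ages (MADCAM1), where 5.31%, 13.7%, 0.056% and 28.3% of all genes did.

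Direction turned for values not past the test. With the replicate block the log2 changes were 0.14 for TEK and 0.20 for LYVE1 at 12 months, -0.016 for VWF, 0.15 for TEK and 0.072 for FLT4 at 24 months, 0.016 for TEK between 12 and 24 months and 0.017 for TEK in the older ages. As single transcripts they were 0.074 for FLT4 at 24 months, and -0.085 for CDH5 and 0.22 for TEK between 12 and 24 months. With values as deposited TEK had 0.0063 at 24 months and 0.000185 between 12 and 24 months, and with totals without the 100 most abundant transcripts KDR had -0.035 at 24 months. PECAM1 between 12 and 24 months was -0.014 with DESeq2's size factors, -0.046 with upper quartile, -0.086 with those totals, -0.016 with DESeq2's Wald test and -0.030 with all 9 libraries. The cause of these turns was not tested.

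With each library left out, at 12 months against 1 month KDR ranged from -0.30 to 0.82, TEK from -0.48 to 0.29, LYVE1 from -1.71 to 0.77 and FLT4 from -1.84 to 0.22. At 24 months against 1 month VWF ranged from -0.43 to 0.43, KDR from -0.32 to 0.78, TEK from -0.44 to 0.31, LYVE1 from -2.31 to 0.15 and FLT4 from -1.09 to 0.95. Between 12 and 24 months PECAM1 ranged from -0.22 to 0.31, CDH5 from -0.024 to 0.36, KDR from -0.26 to 0.048 and TEK from -0.16 to 0.14. For the older ages KDR ranged from -0.36 to 0.76, TEK from -0.51 to 0.26, LYVE1 from -2.06 to 0.42 and FLT4 from -1.52 to 0.55.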

Other observations

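Lists of other cell types and of the cell cycle were also measured. Adipocyte genes, of tissue that is rich in vessels, summed to 169, 8.31 and 340 CPM in replicates 1 to 3 of the 1-month-old goats and to 9.98 to 116 CPM in the older libraries. Cell cycle genes summed to 987, 2578 and 838 CPM at 1 month and to 11.2 to 37.2 CPM later, and all 6 were past the test and lower without 1-month replicate 2 as without replicate 3. Genes of lymph node and B cell stroma summed to 113, 385 and 320 CPM at 1 month and to 15.2 to 59.1 CPM later. Thymic epithelium genes summed to 330, 1264 and 158 CPM at 1 month and to 46.4 to 87.1 CPM later. Most of the later sums was KRT5, at 38.9 to 74.9 CPM, which was not past the test (adjusted p = 0.290, edgeR). FOXN1, PRSS16, PSMB11, TBATA and AIRE on that list were at 0 to 0.174 CPM later. Skeletal muscle genes summed to 1.11 to 40.5 CPM and erythroid genes to 0 to 1.13 CPM over all libraries.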
